A study of Homo sapiens with 5 samples.

Results

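RAB small GTPase genes were examined for PHF8 binding at their promoters in SKMEL-147 cells, a human line established from melanoma. The members were all autosomal protein-coding genes named RAB followed by a number and at most 1 letter, which gave 56 of the 18646 autosomal protein-coding genes with a symbol. PHF8 belongs to the Jumonji C enzymes that take methyl groups off histones, and chromatin bound by it was collected with an anti-PHF8 antibody and sequenced (ChIP-seq) in 3 replicates, A, B1 and B2. They form 1 group, and 2 input libraries, A and B, served as background. The labels give no treatment or genotype for any library. The series text mentions an sgRNA loss-of-function model of PHF8 in the same line, but no library is labelled as coming from it. Nothing states whether the replicates came from separate cultures, so the spread between them may be technical. B1 and B2 share a letter, and A stands apart. Only 1 input bears the letter B, so B1 and B2 may have been set against the same input and may not be independent. With 1 group, no comparison of conditions was possible, binding does not show how strongly a gene is expressed, and the line could not be checked against markers in peak lists.

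RAB proteins are molecular switches that give each membrane compartment its identity. They bind effectors while loaded with GTP and release them once it has been hydrolysed, and they are switched on by exchange factors (GEF) and off by GTPase-activating proteins (GAP). A lipid anchor added by the geranylgeranyl transferase with its escort protein holds them on membranes, and GDI extracts them again. In pigment cells RAB32 and RAB38 direct enzymes of melanin synthesis to melanosomes, and RAB27A joins ripe melanosomes to myosin Va through melanophilin.

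A gene was called bound when a deposited peak came within 1 kb of any of its transcription start sites (TSS) in every replicate. By this measure 45 of the 56 RAB genes were bound, or 80.4% (95% Wilson interval 68.2 to 88.7, which covers the counting of genes only), beside 61.2% of all 18646 genes. Taken singly, replicates A and B1 each gave 46 RAB genes and B2 gave 45. Promoters of the endosomal and Golgi RAB genes were mostly bound, the 3 melanosome genes RAB27A, RAB32 and RAB38 were all bound, and RAB3B and RAB3C were among the unbound genes. The 6 X-linked RAB genes fell outside the rule, and RAB7B was not analysed here.

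The sequences just upstream of a few starts show how the bound and unbound promoters look. Each is the 120 bases before the canonical TSS (the start of the transcript that the annotation ranks first) in GRCh37, 5′ to 3′ on the strand of the gene, with CpG dinucleotides in capitals. RAB22A had the highest peak of all RAB genes in A. RAB27A and RAB32 are melanosome genes. The 3 windows are chr20:56884651-56884770 on the plus strand, chr15:55582012-55582131 on the minus strand and chr6:146864849-146864968 on the plus strand. They held 16, 10 and 19 CpG dinucleotides.
RAB22A: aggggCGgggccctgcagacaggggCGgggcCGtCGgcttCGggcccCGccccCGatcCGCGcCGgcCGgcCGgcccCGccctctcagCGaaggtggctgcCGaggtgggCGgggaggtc
RAB27A: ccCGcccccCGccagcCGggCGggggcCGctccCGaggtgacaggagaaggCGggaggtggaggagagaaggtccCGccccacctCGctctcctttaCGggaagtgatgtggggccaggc
RAB32: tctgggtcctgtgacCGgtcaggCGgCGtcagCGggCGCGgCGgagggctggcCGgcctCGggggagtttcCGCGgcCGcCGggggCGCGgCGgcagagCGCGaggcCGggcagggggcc

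RAB27B is shown because it was bound with a CpG-poorer start, and RAB3B because it was not bound with a CpG-rich one. This refers to the observed over expected CpG ratio within 250 bp of the canonical start, 0.560 for RAB27B and 0.884 for RAB3B. The shorter stretches printed here hold equal counts of CpG for these genes. RAB25 and RAB44 had few CpG dinucleotides and no peak. Their windows are chr18:52495588-52495707 on the plus strand, chr1:52456373-52456492 on the minus strand, and chr1:156030831-156030950 and chr6:36665483-36665602 on the plus strand. They held 10, 10, 5 and 4 CpG dinucleotides.
RAB27B: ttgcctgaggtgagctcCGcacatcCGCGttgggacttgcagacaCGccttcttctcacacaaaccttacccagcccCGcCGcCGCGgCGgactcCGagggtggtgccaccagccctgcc
RAB3B: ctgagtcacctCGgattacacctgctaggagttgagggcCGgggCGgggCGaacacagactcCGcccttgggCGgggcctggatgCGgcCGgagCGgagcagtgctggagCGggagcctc
RAB25: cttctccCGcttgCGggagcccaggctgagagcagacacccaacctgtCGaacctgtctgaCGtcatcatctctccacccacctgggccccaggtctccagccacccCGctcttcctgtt
RAB44: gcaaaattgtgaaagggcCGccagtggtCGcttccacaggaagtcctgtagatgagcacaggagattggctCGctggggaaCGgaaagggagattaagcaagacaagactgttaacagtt

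None of these 7 stretches lies in an annotated exon, except that 46 bases of the RAB27A stretch lie in an exon of a noncoding RAB27A transcript.

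The deposited lists held 20120 to 21506 peaks per replicate. Fold enrichment is the ratio of ChIP signal over the background that the peak caller expected at the summit, the highest point of a peak. Library totals were not used here, so total depth is unknown. The fragments that stood behind each summit were recovered from its fold enrichment and p-value. The fewest behind any listed peak were 8, 8 and 10 in replicates A, B1 and B2. Binding below that was not detectable at this depth, and a higher background raises the number needed. The RAB15 peak in B2, for example, had 17 fragments over a background of 5.33 and a fold enrichment of only 2.84. Each list has its own scale, so each gene's strongest promoter peak was also placed as a percentile among the 11420 bound genes of the same replicate. Over the 45 bound RAB genes, Spearman's rho of these percentiles was 0.966 within the B pair, 0.877 between A and B1 and 0.856 between A and B2. These describe genes of 1 cell line and are given without a p-value. B1 and B2 may share the input labelled B, and its part in their closer agreement was not tested.

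The melanosome genes were bound in every replicate, at middle to low strength. RAB27A lies on chromosome 15 (chr15:55495164-55611311, minus strand). The fold enrichment of its strongest promoter peak was 27.3, 20.5 and 19.5 in replicates A, B1 and B2, which placed it at percentile 47.0 ± 12.0 on average (SD, n = 3). RAB32, on chr6:146864969-146876089 on the plus strand, had 25.7, 11.9 and 15.8, at a percentile of 28.6 ± 9.17. RAB38, on chr11:87846419-87908611 on the minus strand, had 16.9, 8.03 and 9.70, at a percentile of 11.4 ± 3.08. By the strongest peak the order was RAB27A, RAB32, RAB38 in each replicate, although the gap between RAB27A and RAB32 in A was small. The strongest RAB27A peak in B1 and B2 was at an outer start, and with the canonical start alone RAB27A had a percentile of 21.9 ± 10.1 and stood below RAB32 in B1 and B2. The recovered fragments were 69, 60 and 59 for RAB27A, 65, 34 and 47 for RAB32, and 45, 29 and 35 for RAB38, all above the fewest of any listed peak. When a fold enrichment above 10 was required, RAB38 was no longer bound in all 3 replicates.

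RAB27A had 2 separate bound promoters. The first was at its canonical start, with fold enrichment of 27.3, 10.2 and 11.2 in replicates A, B1 and B2. The other was at the pair of outermost annotated starts, at -29297 and -29300 bp from the canonical one, with 15.9, 20.5 and 19.5. The stronger of them was thus the canonical start in A and the outer start in B1 and B2. The recovered fragments were 69, 44 and 50 at the canonical start and 79, 60 and 59 at the outer one, so by fragments the outer start was ahead in all 3 replicates. The background recovered at the canonical summit was 1.57, 3.40 and 3.55 fragments in replicates A, B1 and B2, and at the outer summit 4.02, 1.98 and 2.08. The part of the inputs in this switch was not tested. The outer peak also met starts of PIGB and PIGBOS1, so its signal cannot be assigned to RAB27A alone. Of the 14 annotated starts of RAB27A, 5 lay within 1 kb of a peak in all replicates and 9 had none.

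The promoters of RAB32 and RAB38 had signal on both sides of the start. For RAB32, which has a single annotated TSS, the strongest summit lay 132 bp downstream in A and 79 bp downstream in B2, both in a coding exon. In B1 it lay at -345 bp, and B2 had a further peak at -361 bp, with a fold enrichment of 10.2. The peak in A and that in B1 each ran across the start as 1 peak. For RAB38 the strongest summit lay 94, 483 and 99 bp downstream of the canonical start, and a weaker peak stood upstream at -259 bp in A and -235 bp in B1. Both genes thus had a peak summit on each side of the start, and which side was higher varied between replicates for RAB32.

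**Figure D1:**
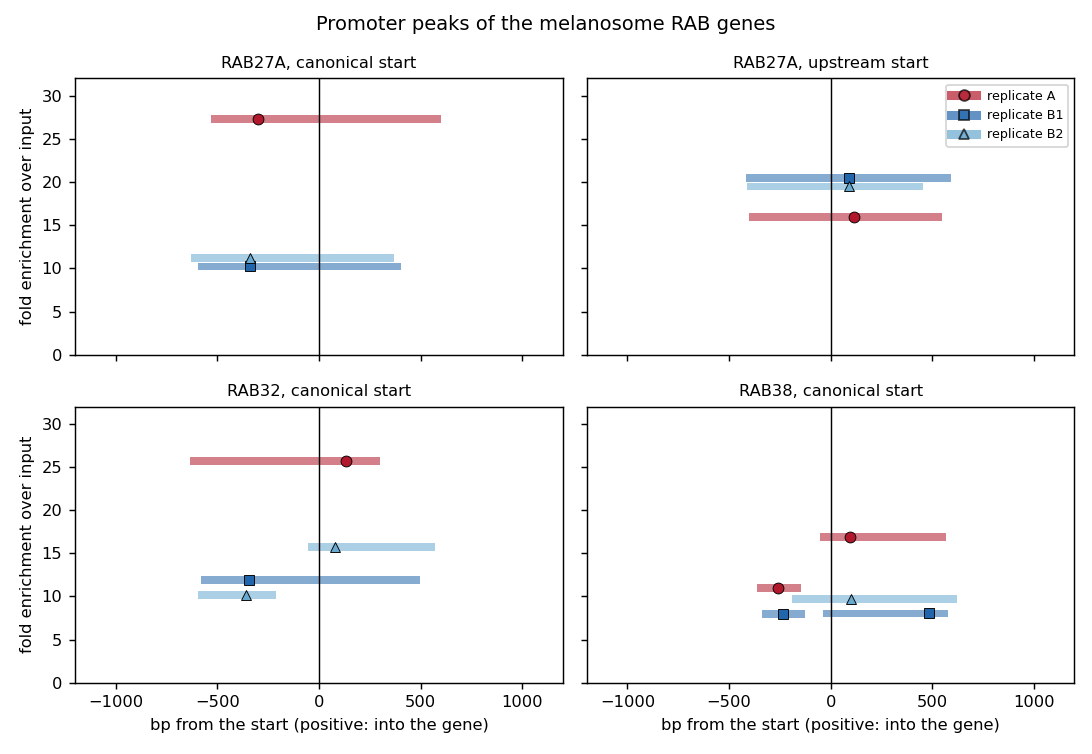
Promoter peaks of the melanosome RAB genes, drawn to scale against the distance from the start (horizontal axis, bp, positive into the gene) at the height of their fold enrichment over input (vertical axis). Bars span the deposited peaks and symbols mark the summits of replicates A, B1 and B2. At the canonical start of RAB27A replicate A stands at 27.3 and the others at 10.2 and 11.2, while at its outer start A is the lowest at 15.9.

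Over all bound RAB genes the strength covered nearly the whole scale of bound genes. The mean percentile ran from 0.848 to 96.9, with a median of 46.9 and quartiles of 22.5 and 74.6. Of the 45 genes, 21 lay above 50, 11 above 75 and 13 below 25. The median fold enrichment was 34.8, 18.8 and 19.3 in replicates A, B1 and B2, beside 33.9, 19.6 and 18.7 over all bound genes. RAB promoters were thus bound about as strongly as the typical bound gene. The SD of a percentile over the replicates had a median of 5.71, and only 2 of the 44 neighbouring pairs in the order differed by more than the larger SD of the pair, so most neighbours in the order cannot be separated.

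The 5 most strongly bound genes act on endosomes, lysosomes, autophagy and the early secretory pathway. RAB11A, which governs recycling endosomes, had a fold enrichment of 56.2, 42.8 and 39.6 in replicates A, B1 and B2 (168, 151 and 144 fragments), at a percentile of 96.9 ± 2.99 (SD, n = 3). RAB22A, which acts in endosomal sorting, had 63.7, 31.2 and 32.2, at 93.0 ± 4.95. RAB7A, the switch of late endosomes and lysosomes, had 49.2, 33.9 and 29.8, at 88.7 ± 3.99. These 3 genes, and also RAB2A and RAB24, lay above the upper quartile of the RAB genes, 74.6, in every replicate. RAB2A, which works between the ER and the Golgi, had 46.2, 32.4 and 33.2, at 87.8 ± 7.64. RAB24, linked to autophagy, had 54.2, 28.9 and 28.5, at 86.7 ± 4.23. The peak of RAB24 also met a start of PRELID1, so this value is shared by both genes.

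The 5 most weakly bound genes were still listed in every replicate. RAB15, which acts in endosomal recycling, had a fold enrichment of 8.32, 3.93 and 2.84 in replicates A, B1 and B2, at a percentile of 0.848 ± 1.27 (SD, n = 3). RAB36 had 4.99, 7.50 and 5.26, at 2.88 ± 3.25, and its peak also met a start of RSPH14. RAB6B, the form of RAB6 found mainly in neurons, had 9.59, 5.40 and 6.64, at 3.52 ± 1.66. None of these genes reached a fold enrichment of 10 in any replicate. RAB26, of secretory granules, had 9.64, 6.82 and 5.59, at 3.68 ± 1.11. With a window of 2 kb in place of 1 kb its percentile was 51.8, so its place among the weakest rests on the window. RAB4A, which drives fast recycling from early endosomes, had 9.28, 7.41 and 7.98, at 5.98 ± 2.71. Neighbours among these 5 differed by less than the larger of their SDs. RAB15 was the sole gene lost when a fold enrichment above 4 was required.

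RAB18, which acts at the ER and on lipid droplets, varied most between replicates. Its fold enrichment was 43.8, 17.5 and 12.3 in replicates A, B1 and B2, an SD of 26.1 percentile points around 46.3. The recovered fragments were 113, 91 and 77, which differ less. The background at the summit was 1.60, 4.26 and 5.33 fragments in replicates A, B1 and B2, highest where the ratio was lowest. The part of the inputs in this spread was not tested.

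**Figure D2:**
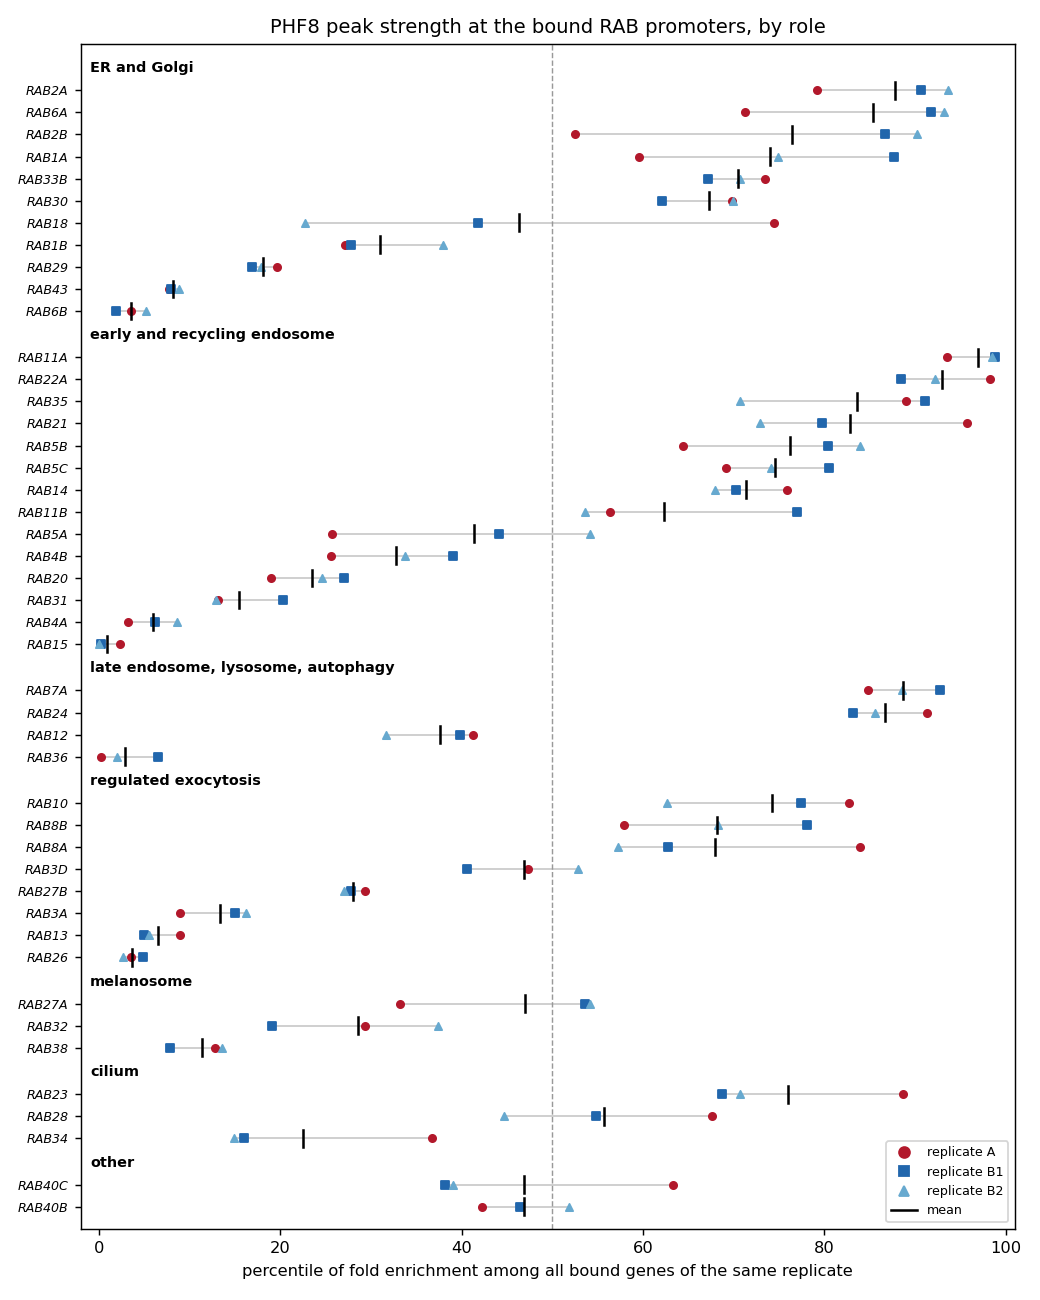
Percentile of the strongest promoter peak among all bound genes of the same replicate (horizontal axis) for each of the 45 bound RAB genes (rows), grouped by role. Symbols are replicates, black ticks are means and the dashed line is the middle of all bound genes. The endosomal genes spread over most of the scale, from RAB11A at 96.9 to RAB15 at 0.848, and RAB18 has the widest spread.

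By role, 14 of 16 genes of early and recycling endosomes were bound, at a median percentile of 66.9, beside a bound share of 61.2% over all genes. The RAB5 genes, which organise early endosomes, and RAB21, RAB35 and RAB14 were among them. Of the ER and Golgi genes, 11 of 13 were bound, at a median of 67.3. RAB1A and RAB1B, which carry traffic from the ER to the Golgi, were both bound. Of the genes of late endosomes, lysosomes and autophagy, 4 of 6 were bound (66.7%), at a median of 62.2. The regulated exocytosis genes had 8 of 12 bound (66.7%) at a median of 37.5, with RAB10 at the upper end at 74.2 ± 10.4 and RAB26 at the lower end. The shares of these last 2 groups were close to that of all genes. All 3 genes linked to the cilium were bound, with RAB23, a brake on Hedgehog signalling, at 76.0 ± 11.0, RAB28 at 55.7 ± 11.5 and RAB34 at 22.5 ± 12.3, or 65.2 with a window of 2 kb. RAB40B and RAB40C, the RAB genes with a box that recruits a ubiquitin ligase, stood at 46.8 ± 4.82 and 46.9 ± 14.3, so their near-equal means hide a spread between replicates. Groups this small, with roles assigned from general knowledge, describe these genes alone.

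The 11 genes that were not bound fell into both kinds of promoter. RAB39A, of lysosomes and autophagy, had a peak in A alone, with a fold enrichment of 4.68 from 11 fragments at -454 bp. RAB3C, a synaptic vesicle gene, had a peak in B1 alone, with 4.77 from 13 fragments at -319 bp from its nearest start. Both lie close to the fewest fragments that any listed peak held. RAB17, RAB19, RAB25, RAB37, RAB3B, RAB42, RAB44, RAB6C and RAB6D had no promoter peak in any replicate. RAB17 and RAB25 are best known from polarised epithelia, RAB37 from secretory granules, and RAB3B from neurons and endocrine cells.

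Base composition separated part of the unbound genes. A TSS was called CpG-island-like when the 250 bp on either side had a GC content of 50% or more and an observed to expected ratio of CpG dinucleotides of 0.6 or more. At least 1 such start was present in 49 of 56 RAB genes (87.5%), beside 73.6% of all genes. Of these 49, 42 were bound (85.7%, 95% Wilson interval 73.3 to 92.9), beside 79.9% of all genes with such a start. The RAB share thus stood nearer to the background among genes of like composition than among all genes, and the interval held it. By role, the bound genes with such a start were 14 of 14 for early and recycling endosomes and 10 of 12 for the ER and Golgi. They were 4 of 6 for late endosomes, lysosomes and autophagy and 6 of 9 for regulated exocytosis. For the cilium and the melanosome they were 3 of 3 each, and 2 of 2 for the other genes. Of the 7 RAB genes without such a start, RAB13, RAB27B and RAB30 were bound, beside 9.40% of all genes without one. The other 4 were RAB17, RAB19, RAB25 and RAB44, with ratios at the canonical start of 0.280, 0.500, 0.283 and 0.158, while those of RAB13, RAB27B and RAB30 were 0.515, 0.560 and 0.555. The bound 3 were thus under the limit of 0.6 and above the other 4, but RAB13 at 0.515 stood close to the unbound RAB19 at 0.500.

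The bound RAB genes without an island-like start were not alike in strength. RAB30, a Golgi gene, had a fold enrichment of 41.7, 22.5 and 23.5 in replicates A, B1 and B2, at a percentile of 67.3 ± 4.48 (SD, n = 3). RAB27B, the paralog of RAB27A that serves secretion, had 25.7, 14.2 and 13.4, at 28.0 ± 1.15. RAB13, of cell junctions, had 14.2, 6.85 and 6.89, at 6.51 ± 2.13. The 3 genes differed by more than their SD. The remaining 7 unbound genes, RAB37, RAB39A, RAB3B, RAB3C, RAB42, RAB6C and RAB6D, did have an island-like start. RAB6C and RAB6D had ratios of 0.949 each, above the median of 0.850 of the bound genes, with the lowest GC content of the members at 52.7% and 51.9%. Of the words of 50 bases in the RAB6C window, 34.2% recur in that of RAB6D, so reads could match both copies and their lack of a peak is uncertain.

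**Figure D3:**
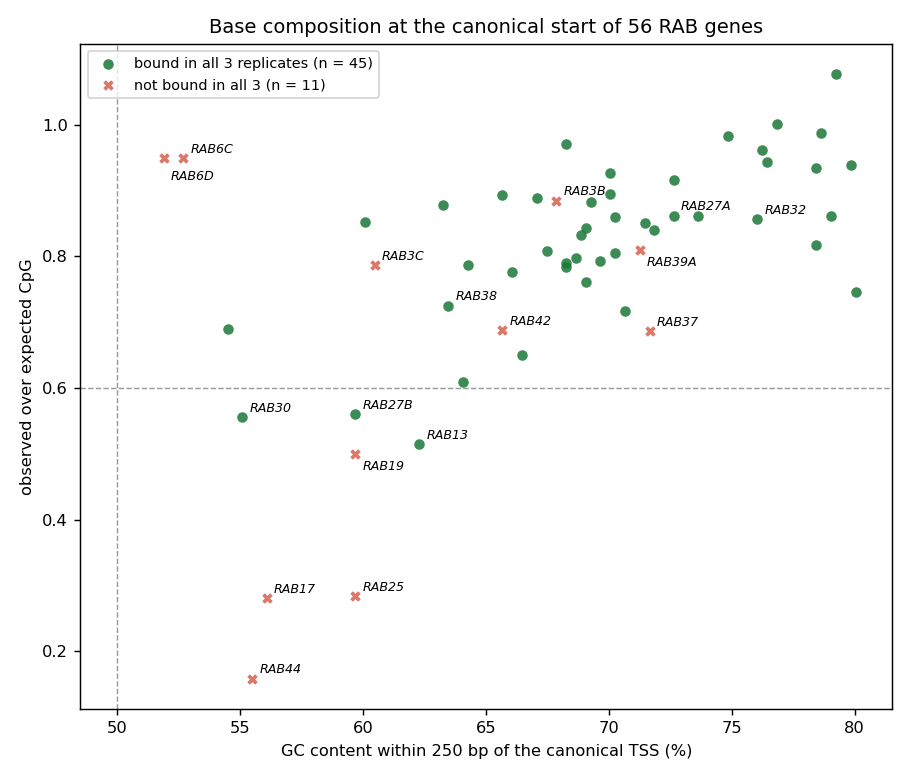
GC content (horizontal axis, %) against the observed over expected CpG ratio (vertical axis) within 250 bp of the canonical start of each of the 56 RAB genes. Dashed lines mark the limits of 50% and 0.6, circles are the 45 bound genes and crosses the 11 others. RAB17, RAB25 and RAB44 lie apart at ratios of 0.280, 0.283 and 0.158, and other crosses lie among the circles.

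Subfamilies were groups of genes that share a number among the members. X-linked RAB genes and RAB7B did not enter these groups, so RAB7A, for example, counts as having a number of its own. In 8 of the 10 subfamilies every member was bound, and RAB3 and RAB6 were split. Of the 31 genes with a number of their own, 24 were bound. These counts stand beside bound shares of 80.4% of all RAB genes and 61.2% of all genes. Among all genes with an island-like start the share was 79.9%. The counts were not tested against these shares. In the RAB3 group, which controls the release of secretory vesicles, RAB3D had a fold enrichment of 32.7, 17.3 and 19.3 in replicates A, B1 and B2, and RAB3A had 14.1, 10.6 and 10.5. RAB3B had no peak, and RAB3C had the single peak described above. In the RAB6 group, which carries traffic back through the Golgi, RAB6A had 42.4, 33.1 and 32.9 and RAB6B the low values given above. RAB6C and RAB6D had no peak.

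The 12 pairs of bound paralogs were compared within each replicate, as a description over 3 values. RAB6A stood above RAB6B by 2.36 ± 0.24 on the log2 scale of fold enrichment (SD, n = 3), the widest gap. RAB1A stood above RAB1B by 0.79 ± 0.29 and RAB11A above RAB11B by 0.78 ± 0.22. The log2 ratio was -1.15 ± 0.24 for RAB4A to RAB4B and -0.93 ± 0.26 for RAB3A to RAB3D. RAB5A stood below both of its paralogs, with -0.61 ± 0.10 to RAB5B and -0.58 ± 0.23 to RAB5C. Of the 12 pairs, 9 kept their order in all 3 replicates, and 7 did when each gene was taken at its canonical start alone. The 2 others hold RAB27A and RAB3D, whose strongest peaks in B1 and B2 lay at outer starts and met starts of other genes. At the canonical start RAB27A stood below RAB27B in B1 and B2, and the log2 ratio of RAB3A to RAB3D was -0.53 ± 0.62, with equal fold enrichment of 10.5 in B2. The pairs RAB8A with RAB8B, RAB40B with RAB40C, and RAB5B with RAB5C changed order between replicates, at -0.01 ± 0.35, 0.02 ± 0.32 and 0.03 ± 0.13. A two-sided exact sign-flip permutation test over 3 replicates cannot give less than 0.25, so none was run.

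The summits at RAB genes sat beside the canonical start rather than on it. The canonical start was within reach of a peak in all replicates for each of the 45 bound genes. In 43 of them the strongest summit stayed within 1 kb of the canonical TSS in all 3 replicates. Of these 43, 31 had it downstream in every replicate and 7 upstream in every replicate, and 5 had it on both sides. The 100 bp just upstream of the canonical start held the strongest summit of 0 of 43 genes, which allows a share of up to 6.98%, beside 0.508% ± 0.063 of the summits of all bound genes (SD, n = 3). The bin from 100 to 200 bp downstream held 59.7% ± 7.11 of RAB summits and 59.5% ± 1.96 of all. The bin from 200 to 400 bp upstream held 15.5% ± 3.55 and 15.4% ± 0.308. RAB genes and all bound genes thus had near-equal shares in these bins. These bins were chosen after the values were seen.

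Measured from the nearest annotated start instead, the strongest summit lay downstream in 71.9% ± 2.57 of RAB genes and 66.0% ± 0.179 of all bound genes (SD, n = 3). By this measure some summits lay close to a start or just upstream of it. RAB14 had 4, -24 and -35 bp, RAB7A -38, -32 and -20 bp and RAB4B 9, 17 and 43 bp in replicates A, B1 and B2. Along the chromosome, the strongest summit moved by at most 50 bp over the replicates in 31 of 45 genes, with a median of 37 bp. It moved by more than 500 bp in 5 genes. The moves were 28911 bp in RAB27A and 7351 bp in RAB3D, where the strongest peak changed from the canonical to an outer start, and 1113 bp in RAB40C, 943 bp in RAB13 and 757 bp in RAB43. RAB7A had its summit 131, 137 and 149 bp downstream of the canonical start, and RAB6A 125, 132 and 130 bp. RAB11A, RAB2A, RAB2B, RAB30, RAB34, RAB1A and RAB33B were the genes upstream of the canonical start in every replicate, with RAB2A at -342, -340 and -340 bp. RAB33B and RAB1A were the farthest, at -563, -561 and -573 bp and at -544, -539 and -549 bp. From their nearest annotated start RAB33B and RAB34 were downstream in every replicate instead, at 135, 137 and 125 bp and at 77, 64 and 59 bp.

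**Figure D4:**
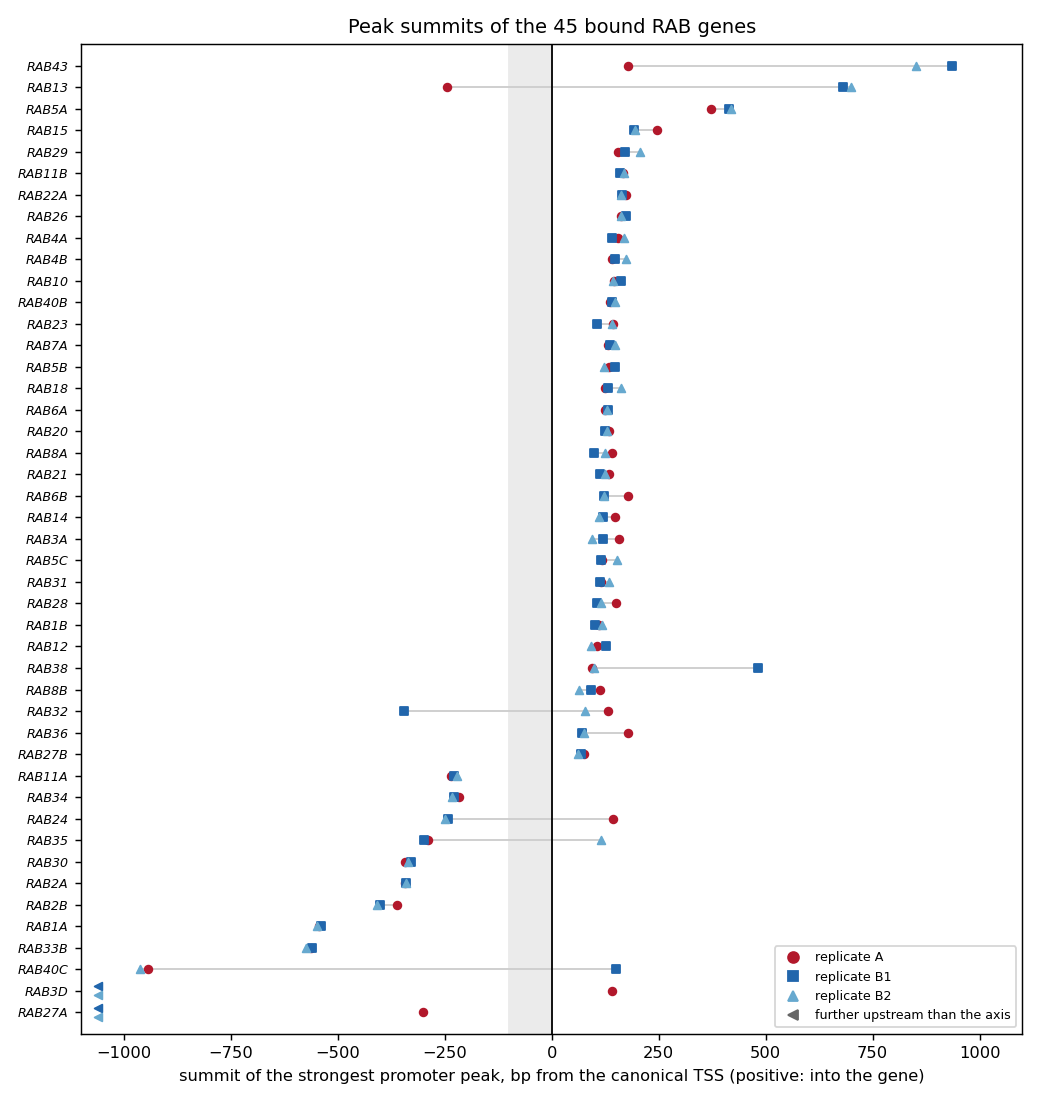
Position of the strongest promoter summit from the canonical TSS (horizontal axis, bp, positive into the gene) in replicates A, B1 and B2 for the 45 bound RAB genes, ordered by their median. The 100 bp just upstream of the start are shaded and hold no summit, and 31 genes lie downstream in all 3 replicates. Left-pointing symbols stand for summits beyond the axis, at the outer starts of RAB27A and RAB3D in B1 and B2.

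RAB promoters often carried more than 1 peak. The share with at least 2 promoter peaks was 62.2% ± 2.22 of bound RAB genes and 47.0% ± 1.89 of all bound genes (SD, n = 3), and 23 RAB genes had them in all 3 replicates. The strongest peak was narrower, with a median width of 569 bp ± 60.5 beside 751 bp ± 74.5. Neither difference was tested, and how many starts a gene has bears on the first. RAB22A had a further peak at -392, -397 and -377 bp in replicates A, B1 and B2, with fold enrichment of 29.5, 19.1 and 17.5. RAB6A had one at -463, -457 and -503 bp, with 13.2, 9.55 and 8.87. RAB5C had one at -411, -403 and -385 bp, with 28.1, 10.7 and 12.6. In these 3 genes the stronger peak lay downstream. RAB2B was the reverse, with the stronger peak at -361, -400 and -407 bp and a weaker one downstream with 21.3, 13.2 and 12.8.

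Starts far apart were bound in 3 RAB genes, RAB27A, RAB11A and RAB3D, when peaks within 2 kb were joined. RAB11A had its main peak near the canonical start and a further bound region around -76891 bp, with fold enrichment of 21.6, 15.8 and 16.4 in replicates A, B1 and B2. The strongest promoter peak of DENND4A, on the list of exchange factors, had the same values in each replicate. The signal of this region thus cannot be assigned to RAB11A alone. RAB3D had 32.7, 13.6 and 10.5 at its canonical start and 24.9, 17.3 and 19.3 around its outer start, whose strongest peak also met starts of CCDC159 and TMEM205. The stronger start of RAB3D was thus the canonical one in A and the outer one in B1 and B2. The recovered fragments gave the same switch, with 83, 39 and 31 at the canonical start and 74, 50 and 58 at the strongest outer peak, whereas for RAB27A the outer start led by fragments in all 3 replicates. Away from every start, 3 regions inside RAB27A, RAB31 and RAB36 had a peak, each in 1 replicate, and 0 in all 3.

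The strongest peak of 22 bound RAB genes met no start of another gene, that of 13 met starts of noncoding genes only and that of 10 met a start of another protein-coding gene. RAB5B shared its peak with PMEL, which encodes the fibrils of the melanosome, RAB2B with TOX4 and RAB5A with EFHB. A peak over such a pair cannot be assigned to either gene.

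Short sequence motifs were counted on both strands from 250 bases before to 50 after the canonical start, and no motif searched contains another. The GC box, GGGCGG, was present in 48 of 56 RAB genes (85.7%) and in 62.3% of 18395 promoters. It was found in 42 of 45 bound and 6 of 11 unbound RAB genes. RAB27A, RAB32 and RAB38 had 3 each, and those of RAB27A start at -119, -103 and -46 bp, within the sequence printed above. The E-box CACGTG was present in 6 RAB genes (10.7%, beside 8.73%), namely RAB21, RAB24, RAB29, RAB31, RAB4A and RAB5A. All 6 were bound, where 80.4% of all RAB genes and 61.2% of all genes were. For the GC box and the E-box, the bound share of all promoters with the motif was not counted, so these splits show no link to binding. CATGTG, the core of the M-box of melanocyte promoters, was found in RAB17 and RAB3A (3.57%, beside 8.17%). CCAAT was found in 13 RAB genes (23.2%, beside 35.7%), TATAAA in RAB6C and RAB6D alone (3.57%, beside 9.59%), and TGACGTCA in RAB25 alone (1.79%, beside 2.74%). None of the motifs other than the GC box was in the windows of the 3 melanosome genes. A match describes letters in a window and shows no binding of a factor.

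The pooled regulators and effectors of RAB proteins had a higher bound share than the RAB genes, but the effectors alone did not. Effectors stood at 79.4% (27 of 34), beside 80.4% of RAB genes. Exchange factors stood at 90.3% (28 of 31) and GTPase-activating proteins at 94.1% (32 of 34). All 5 genes of the lipid anchor and membrane cycle were bound. Of the 104 autosomal regulators and effectors on the lists, 92 were bound (88.5%, 95% Wilson interval 80.9 to 93.3), beside 61.2% of all genes. This interval overlaps that of the RAB genes, and the difference was not tested. Among the 99 with an island-like start, 91 were bound, beside 79.9% of all genes with such a start.

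All 5 genes on the list of the lipid anchor and membrane cycle were bound. Their median percentile of 82.6 is the value of RABIF, which had 53.4, 26.9 and 26.2, at 82.6 ± 6.77. The 4 others spread widely on either side of it. GDI2, which extracts RAB proteins from membranes, had a fold enrichment of 40.5, 37.2 and 35.8 in replicates A, B1 and B2, at 86.4 ± 17.2 (SD, n = 3). CHML, an escort protein, had 49.2, 27.9 and 27.9, at 83.2 ± 2.20. The subunits of the transferase were lower. RABGGTA had 41.4, 17.9 and 16.7, at 51.2 ± 15.3, and RABGGTB had 28.3, 17.9 and 15.7, at 38.7 ± 3.82.

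Of 31 exchange factors 28 were bound (27 of 29 with an island-like start), the others being DENND1C, DENND2C and DENND2D. DENND2C had a peak in A and B1 and DENND2D in A. HPS1 and HPS4 form the exchange factor of RAB32 and RAB38. HPS1 had 52.8, 30.2 and 22.0, at a percentile of 80.1 ± 13.7 (SD, n = 3), and HPS4 had 41.6, 20.9 and 18.5, at 58.0 ± 10.1. Both thus stood above the genes of the switches they load, RAB32 at 28.6 and RAB38 at 11.4, in mean percentile. Of 34 GTPase-activating proteins 32 were bound (32 of 33 with an island-like start), the others being SGSM1 and TBC1D10C.

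Of 34 effectors 27 were bound (27 of 32 with an island-like start), at a median percentile of 51.1. ANKRD27, the effector of RAB32 and RAB38 known as VARP, had 42.5, 26.4 and 22.4, at 71.4 ± 5.10 (SD, n = 3). MLPH, which encodes melanophilin, had 34.7, 17.1 and 15.5, at 42.9 ± 8.34. MYO5A, the motor that melanophilin recruits, had 28.7, 22.5 and 20.0, at 51.7 ± 13.0. The chain of RAB27A, MLPH and MYO5A was thus bound throughout. By the strongest peak their mean percentiles differed by less than the largest SD of the 3. At its canonical start alone RAB27A had 27.3, 10.2 and 11.2, below the strongest peaks of MLPH and MYO5A in every replicate. These are unlike measures, because MLPH and MYO5A were not taken at their canonical starts alone. All 21 genes on the melanosome traffic list, which repeats some of these, were bound, and all 21 have an island-like start, beside 79.9% bound among all genes with one.

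For comparison, 23 of 29 genes of the ARF, ARL and SAR family of small GTPases (79.3%, 95% Wilson interval 61.6 to 90.2) were bound. This interval holds the RAB share of 80.4%, so the families were not told apart at this size. The share of all genes was 61.2%. With an island-like start 23 of 26 genes of this family were bound, beside 79.9% of all genes with one.

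**Figure D5:**
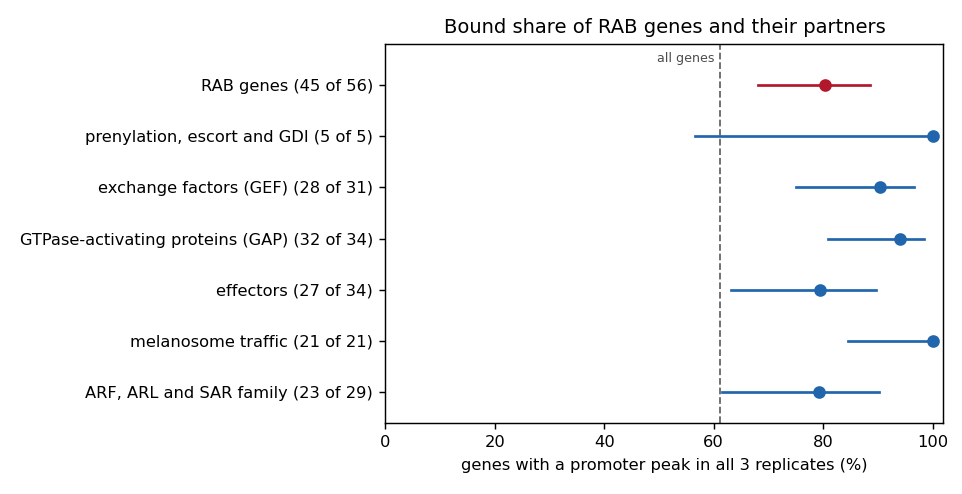
Share of genes with a promoter peak in all 3 replicates (horizontal axis, %) for RAB genes, their regulators and effectors and the ARF, ARL and SAR family, as points with 95% Wilson intervals. The dashed line marks all autosomal protein-coding genes at 61.2%. RAB genes stand at 80.4%, and the interval of the ARF, ARL and SAR family holds that value.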

How the data were processed

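PHF8 ChIP-seq peak lists of 3 replicates from SKMEL-147 cells were analysed, and the 2 inputs have no list of their own here. The authors mapped reads to hg19, the same build as GRCh37, using Bowtie2 with default options. Each ChIP replicate was then set against input in MACS (narrow peaks), and no replicates were pooled. The submitters' processing notes also name bcl2fastq and Picard. Versions and the treatment of duplicate reads are not given in the sources used here. The deposited fold enrichment is a ratio of ChIP over the expected background, and the deposited p-value and q-value are −log10 values. The deposited score and summit offset were made by the same caller, and the score was not used. All listed peaks passed a fold enrichment of 1.5 and a q-value of 0.05. The direction of the q cutoff printed in the methods was read as below 0.05.

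TSSs were all transcript starts of GENCODE release 44 lifted to GRCh37, and 0 peaks ran past a chromosome end. A peak within 1 kb of a TSS counted for that gene. Fragments n at a summit were solved from the fold enrichment, (n + 1) over (background + 1), and the Poisson p-value. They came out whole within 0.001 for 99.75% of peaks in A, 99.99% in B1 and 100% in B2. Where duplicates were kept, fragments are not independent molecules. The members, role lists, regulator lists and named-gene rule were chosen with earlier results of these data known. Named with values were the melanosome genes, the 5 strongest and 5 weakest bound genes, genes with a peak in some replicates, split subfamilies, up to 5 genes with separate promoter peaks, and chosen regulators. Some listed items are not reported here. No set test was run. Python 3.11.15, pandas 2.3.3, scipy 1.17.1 and pysam 0.24.0 were used, and the assignment and recovery steps were tested on simulated data. Alternatives changed the peak cutoff, window, TSS choice and replicates.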

Additional observations from a re-analysis of the deposited data

How the results depend on the processing

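The number of bound RAB genes ran from 36 to 45 over 11 alternatives, and all 56 members entered each. At a fold enrichment above 10 it was 36 (beside 51.0% of all genes), without RAB13, RAB15, RAB26, RAB31, RAB36, RAB38, RAB43, RAB4A and RAB6B, and with the 5′ end of the gene record as the only TSS it was 39 (beside 54.9%), without RAB11A, RAB14, RAB26, RAB27B, RAB43 and RAB7A. Melanosome genes bound ran from 2 to 3 and fully bound subfamilies from 6 to 8.

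The median percentile became 61.1 at a fold enrichment above 10, where weak genes drop out, and 51.8 with a window of 2 kb. With the canonical TSS alone, also added after seeing the data, it was 46.8, and the mean percentile of RAB27A became 21.9 and that of RAB3D 29.8. Leaving out 1 replicate at a time gave 49.2 to 51.3, beside 46.9 with all. The share of summits downstream became 68.5% at a fold enrichment above 10, 82.0% with the 5′ end of the gene record, 80.7% without genes with a divergent TSS within 2 kb and 74.8% from the canonical TSS, an alternative added after seeing the data. The bound share of RAB genes with an island-like start became 69.4% at a fold enrichment above 10. With fragments in place of fold enrichment, 15 of 45 single percentiles moved by more than their SD. The causes were not tested. No paired analysis was possible because there is 1 ChIP group. Total depth is unknown, and peaks under 8 to 10 fragments are not listed.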
